A study of Homo sapiens with 6 samples.

Results

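The genes described here are 10 receptor tyrosine kinases: AXL, EGFR, ERBB2, ERBB3, MET, EPHA2, FGFR1, IGF1R, INSR and DDR1. They were taken as every probe whose gene symbol in the platform annotation is one of these names, which gave 21 probes of 48701 on the array and 10 of 18833 named genes. A549, an epithelial line from a human lung adenocarcinoma, was grown in DMEM with serum, and its RNA was measured on single-colour Illumina HumanHT-12 V3 bead arrays. Cells were transfected with an siRNA against Snai1, with an siRNA against ncRNA-a7, a long noncoding RNA, or with a control siRNA. Snai1 is a transcriptional repressor that promotes epithelial-mesenchymal transition. Each of the 3 groups had 2 arrays, and the labels do not say whether the replicates were separate cultures, so p-values describe only how far these arrays differ and the spread may be a technical one.

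Receptor tyrosine kinases are membrane proteins that bind a ligand outside the cell, pair, and phosphorylate tyrosines on their own tails. Adaptor proteins such as GRB2 and SHC1 dock there and pass the signal to the Ras-ERK and PI3K-AKT pathways, while phosphatases, ubiquitin ligases and Sprouty-type proteins damp it. In lung epithelium and its tumours EGFR and MET are known drivers of growth, and AXL is often discussed together with epithelial-mesenchymal transition and with resistance to EGFR inhibitors. RNA was measured here, and receptor protein and phosphorylation were not.

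Array means lay between 715 and 914 arbitrary units of brightness and array medians between 147.5 and 154. Arrays of the same group correlated at r of 0.991 to 0.993 over all probes, and arrays of different groups at 0.987 to 0.989. The siRNA targets could not be checked: SNAI1 gave 127.5 and 127.3 on the Snai1 siRNA arrays, 139 and 147 on the ncRNA-a7 siRNA arrays and 143 and 144 on the control siRNA arrays, and TRERNA1, the probe name under which ncRNA-a7 was looked up, was also dim, at 142.7 and 128.6 on the Snai1 siRNA arrays, 129.7 and 132.5 on the ncRNA-a7 siRNA arrays and 117.9 and 117.8 on the control siRNA arrays, so its signal on the ncRNA-a7 siRNA arrays lay above control, against the label. Neither passed the filter on low signals, which kept probes with a mean log2 signal above the median over all probes, so neither probe was bright enough to check the labels, and knockdown here means the siRNA named in the label. KRT8, a simple-epithelium keratin, lay between the 98.9 and 99.5 percentile of all probes, CDH1, which encodes E-cadherin, between 94.5 and 97.0, and KRT18, the partner of KRT8, between 65.3 and 72.2. Of the 12 epithelial, lung and A549 markers 8 passed the filter, and AKR1C1, NKX2-1, SFTPC and NAPSA did not. Of the other cell types' markers, the leukocyte genes CD14 and ITGAM, the endothelial genes PECAM1, KDR and ESAM and the fibroblast genes DCN and LUM passed it, while PTPRC and CD3E, CDH5 and VWF, and COL3A1, THY1 and PDGFRB did not.

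AXL, the receptor for GAS6, was higher after both knockdowns by about the same amount. Its brighter probe read 3549.7 and 2649.96 on the Snai1 siRNA arrays, 3049 and 3193 on the ncRNA-a7 siRNA arrays, and 1519 and 1728 on the control siRNA arrays. All 4 knockdown arrays lay above both control arrays. Changes were tested on normalised log2 signals with limma, a linear model that shares the spread over features, and p-values were adjusted over all features tested. AXL was 2.09-fold higher after Snai1 siRNA than after control siRNA (log2 change 1.06 ± 0.12 SE, n = 2 arrays a group, limma adjusted p = 0.000293) and 2.07-fold higher after ncRNA-a7 siRNA than after control siRNA (1.05 ± 0.12, limma adjusted p = 0.000237). Between ncRNA-a7 siRNA and Snai1 siRNA the log2 change was -0.01 (95% interval -0.26 to 0.24, limma adjusted p = 0.973), and the sign turned under median scaling (0.0022). Both calls against control were kept on leaving out any 1 of the 6 arrays. The signals are of bulk RNA. A change in the share of cells carrying a transcript and a change in its amount per cell cannot be told apart.

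**Figure D1:**
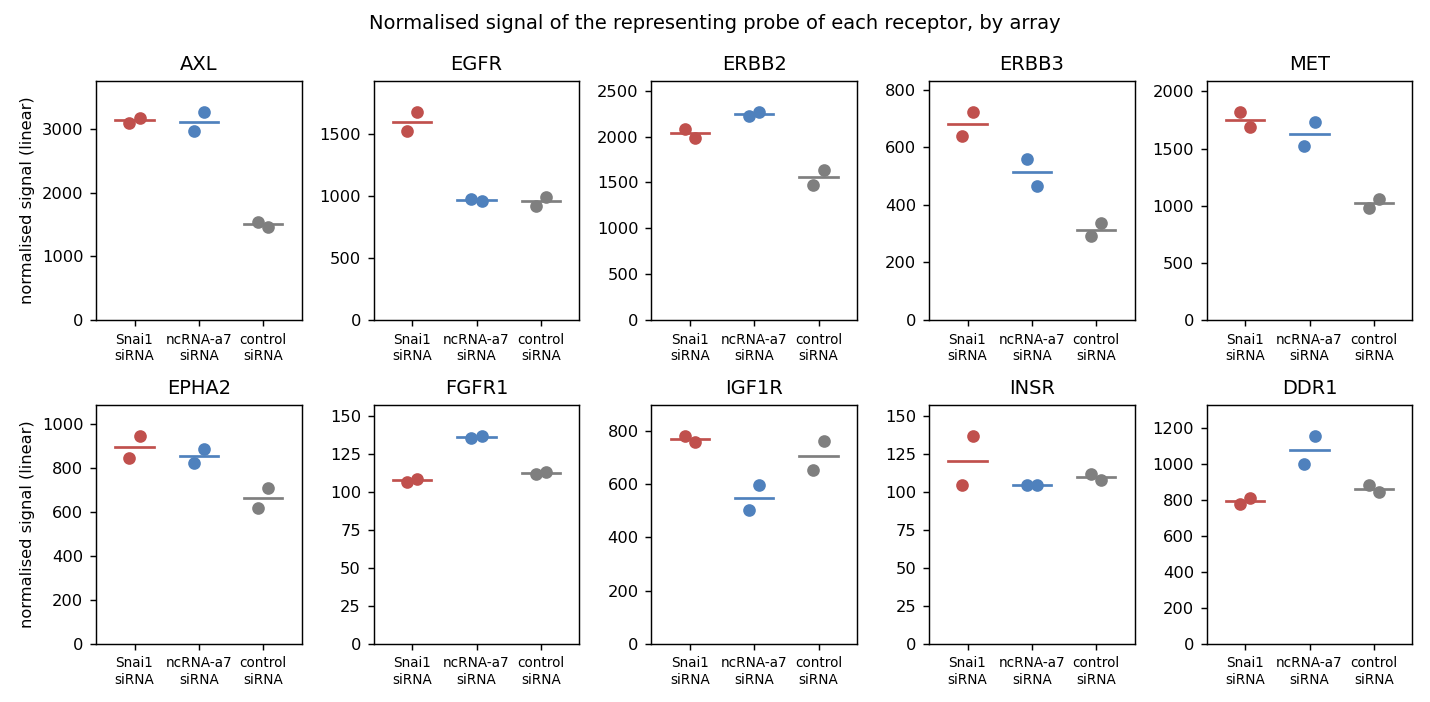
Normalised signal (linear scale, arbitrary units) of the brightest probe of each of the 10 receptors, with 1 point for each array and a bar at the mean of the 2 arrays of each siRNA group. AXL, ERBB3 and MET stand above control in both knockdowns, while EGFR stands above control after Snai1 siRNA and at the control level after ncRNA-a7 siRNA.

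The sequence before the start site of AXL is shown because AXL was called higher after both knockdowns, as was MET, and that of EGFR because it was called higher after Snai1 siRNA and not after ncRNA-a7 siRNA. Each is the 250 bases upstream of the first RefSeq transcription start in build GRCh38.p14, 5′ to 3′ on the strand of the gene. Capitals mark the Snail-type E-box CAGGTG (or its reverse complement CACCTG) and the GC box GGGCGG (or CCGCCC), the letters bound by the Snail and Sp1 families in general. The windows are chr19:41218973-41219222 for AXL, chr7:116671946-116672195 for MET and chr7:55018767-55019016 for EGFR, all on the plus strand.
AXL: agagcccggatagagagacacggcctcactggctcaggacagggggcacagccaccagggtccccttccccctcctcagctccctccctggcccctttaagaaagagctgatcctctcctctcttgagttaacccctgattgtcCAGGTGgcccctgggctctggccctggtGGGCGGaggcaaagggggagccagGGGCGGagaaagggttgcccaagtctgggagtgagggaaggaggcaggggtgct
MET: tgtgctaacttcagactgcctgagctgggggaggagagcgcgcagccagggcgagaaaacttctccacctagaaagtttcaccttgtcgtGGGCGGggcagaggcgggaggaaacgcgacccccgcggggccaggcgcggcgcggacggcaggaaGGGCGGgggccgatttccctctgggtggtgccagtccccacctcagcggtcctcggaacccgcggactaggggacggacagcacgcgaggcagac
EGFR: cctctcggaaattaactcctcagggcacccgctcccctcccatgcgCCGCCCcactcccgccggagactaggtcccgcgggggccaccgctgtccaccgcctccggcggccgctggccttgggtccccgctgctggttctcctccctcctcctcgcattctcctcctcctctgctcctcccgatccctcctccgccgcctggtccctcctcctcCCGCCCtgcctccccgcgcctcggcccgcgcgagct
The printed AXL window held an E-box 106 bases before the start and GC boxes at 78 and 54 bases before it. MET had GC boxes at 160 and 95 bases, and EGFR at 204 and 36 bases. The promoter table listed 17 windows for 8 of the 10 receptors; ERBB3 and FGFR1 were not among them. The E-box occurred in 4 of the 17 windows, in AXL and DDR1, whose 8 windows partly overlap, against 17.5% of 35116 promoter windows of the genome. The GC box occurred in 10 of 17 windows and 7 of 8 genes, against 42.6% of promoters, the AP-1 letters TGANTCA in 3 windows against 6.57%, and TATAAA in 1 window against 10.7%. These motifs were searched on both strands and did not overlap in the printed windows. GC content of the printed windows was 64.4% for AXL, 68.4% for MET and 73.6% for EGFR, against a median of 58.0% over all promoters. AXL and EGFR had 2 listed starts each, and their second windows are not printed. The second AXL window held 0 E-boxes and 0 GC boxes, at 54.4% GC. The second EGFR window held 0 E-boxes, 0 GC boxes, 2 AP-1 matches and 2 TATAAA matches, at 38.8% GC. A match is a description of letters and no evidence of binding.

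Snai1 siRNA was compared with control siRNA to see which receptor transcripts differ after transfection with the siRNA against Snai1. Of the 10 receptors, 5 were called higher at a Benjamini-Hochberg adjusted p under 0.05 (AXL, EGFR, ERBB3, MET and EPHA2) and 0 lower, where limma called 9.16% of all 19730 features, 4.88% higher and 4.28% lower. At an unadjusted p under 0.05, 6 of the 10 receptors differed. The receptors and the lists below were chosen with earlier results of these data known. Their counts and medians therefore cannot test for an excess over all features. The median log2 change of the receptors was 0.41, against -0.01 over all features. The normalised arrays did not overlap for 8 receptors, 6 higher and 2 lower, where 53.4% of all features did not overlap, 25.7% higher and 27.7% lower.

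ncRNA-a7 siRNA was compared with the same control arrays. Of the 10 receptors, 4 were called higher (AXL, ERBB2, ERBB3 and MET) and 0 lower, where limma called 9.94% of features, 5.78% higher and 4.16% lower, and 8 receptors had an unadjusted p under 0.05. The median log2 change of the receptors was 0.34, against -0.01 over all features. Groups did not overlap for 9 receptors, 7 higher and 2 lower, where 52.0% of features did not overlap, 25.0% higher and 27.1% lower. Both knockdowns were set against the same 2 control arrays, so the 2 comparisons are not independent of each other.

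The ERBB family members were not called in the same comparisons with control, and differences between the members were not tested. ERBB3, which has little kinase activity and signals by pairing with ERBB2, read 767 and 645 on the Snai1 siRNA arrays, 621 and 518 on the ncRNA-a7 siRNA arrays and 328 and 432 on the control siRNA arrays. Its levels ran highest after Snai1 siRNA, then ncRNA-a7 siRNA, then control siRNA, with no overlap between any of the groups. It was 2.17-fold higher after Snai1 siRNA than after control siRNA (log2 change 1.12 ± 0.14, limma adjusted p = 0.000519) and 1.63-fold higher after ncRNA-a7 siRNA than after control siRNA (0.70 ± 0.14, limma adjusted p = 0.00748). The second call was lost without ncRNA-a7 siRNA replicate 1 (adjusted p = 0.0624) and without control siRNA replicate 1 (adjusted p = 0.0997). Between ncRNA-a7 siRNA and Snai1 siRNA the log2 change was -0.41 (95% interval -0.71 to -0.12), which missed the threshold after adjustment (limma adjusted p = 0.0876) and passed it under 3 of 18 alternatives (lowest adjusted p = 0.0263).

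EGFR, the receptor for EGF and its relatives, was higher after Snai1 siRNA and not after ncRNA-a7 siRNA. Its brightest probe, which the platform annotation assigns to the full-length transcript, read 1783 and 1421 on the Snai1 siRNA arrays, 1035 and 1004 on the ncRNA-a7 siRNA arrays and 923 and 1181 on the control siRNA arrays. The Snai1 siRNA arrays lay above the other 4, and the ncRNA-a7 siRNA arrays lay between the control arrays. EGFR was 1.67-fold higher after Snai1 siRNA than after control siRNA (log2 change 0.74 ± 0.12, limma adjusted p = 0.00248) and differed by 0.02 ± 0.12 between ncRNA-a7 siRNA and control siRNA (95% interval -0.24 to 0.27, limma adjusted p = 0.948), a value whose sign turned under median scaling and without control siRNA replicate 1. The direct comparison put EGFR 1.65-fold lower after ncRNA-a7 siRNA than after Snai1 siRNA (log2 change -0.72 ± 0.12, limma adjusted p = 0.00402). That call was lost without Snai1 siRNA replicate 2 (adjusted p = 0.0552).

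ERBB2, which has no known ligand and is the preferred partner of the other ERBB receptors, read 2433 and 1689 on the Snai1 siRNA arrays, 2284 and 2255 on the ncRNA-a7 siRNA arrays and 1452 and 1915 on the control siRNA arrays. It was 1.44-fold higher after ncRNA-a7 siRNA than after control siRNA (log2 change 0.53 ± 0.12, limma adjusted p = 0.014). After Snai1 siRNA its log2 change against control was 0.39 (95% interval 0.14 to 0.64) and did not pass (limma adjusted p = 0.0575). This change passed the threshold under 4 of 18 alternatives. The ncRNA-a7 call was lost without ncRNA-a7 siRNA replicate 1 (adjusted p = 0.0538), without ncRNA-a7 siRNA replicate 2 (0.0604) and without control siRNA replicate 1 (0.147).

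MET, the receptor for hepatocyte growth factor, followed AXL at a smaller size. It read 2124 and 1427 on the Snai1 siRNA arrays, 1580 and 1744 on the ncRNA-a7 siRNA arrays and 981 and 1260.4 on the control siRNA arrays. All 4 knockdown arrays lay above both control arrays. MET was 1.71-fold higher after Snai1 siRNA than after control siRNA (log2 change 0.78 ± 0.12, limma adjusted p = 0.00237) and 1.59-fold higher after ncRNA-a7 siRNA than after control siRNA (0.67 ± 0.12, limma adjusted p = 0.00532). The second call was lost without control siRNA replicate 1 (adjusted p = 0.0738). The difference between ncRNA-a7 siRNA and Snai1 siRNA was -0.11 on the log2 scale (95% interval -0.37 to 0.15, limma adjusted p = 0.647).

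EPHA2, a receptor for ephrin-A ligands held on neighbouring cells, read 1007 and 831 on the Snai1 siRNA arrays, 886 and 930.5 on the ncRNA-a7 siRNA arrays and 634 and 859 on the control siRNA arrays. The signals as deposited overlapped between Snai1 siRNA and control siRNA, and the normalised signals, 845 and 947 after Snai1 siRNA against 619 and 709.7 after control siRNA, did not. EPHA2 was 1.35-fold higher after Snai1 siRNA than after control siRNA (log2 change 0.43 ± 0.12, limma adjusted p = 0.0498), a call at the threshold that was lost without any 1 of the 6 arrays (adjusted p from 0.0524 to 0.329). After ncRNA-a7 siRNA the log2 change against control was 0.37 (95% interval 0.10 to 0.64, limma adjusted p = 0.0863). This change missed the threshold and passed it under 3 of 18 alternatives.

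In the fit reported here, the insulin receptor family was not called against control in either knockdown. IGF1R, the receptor for insulin-like growth factors, read 934 and 677 on the Snai1 siRNA arrays, 561 and 648 on the ncRNA-a7 siRNA arrays and 669.8 and 917 on the control siRNA arrays. Its log2 change against control was 0.13 after Snai1 siRNA (95% interval -0.16 to 0.41, limma adjusted p = 0.618) and -0.36 after ncRNA-a7 siRNA (-0.65 to -0.08, limma adjusted p = 0.105). The IGF1R change after ncRNA-a7 siRNA passed the threshold under 3 of 18 alternatives. INSR, the insulin receptor, was dim, with signals from 154 to 177 over the 6 arrays, and its log2 changes against control were 0.12 after Snai1 siRNA and -0.07 after ncRNA-a7 siRNA (limma adjusted p = 0.656 and 0.81).

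FGFR1, a receptor for fibroblast growth factors, was about as dim, at 159.5 and 155 on the Snai1 siRNA arrays, 191 and 187 on the ncRNA-a7 siRNA arrays and 161 and 170.4 on the control siRNA arrays. The ncRNA-a7 siRNA arrays lay above the other 4, yet its log2 change of 0.28 ± 0.11 between ncRNA-a7 siRNA and control siRNA did not pass (limma adjusted p = 0.143). DDR1, a collagen receptor of epithelial cells, read 926 and 717 on the Snai1 siRNA arrays, 1056 and 1192 on the ncRNA-a7 siRNA arrays and 889 and 1009.8 on the control siRNA arrays. Its log2 changes against control were -0.12 ± 0.12 after Snai1 siRNA (limma adjusted p = 0.609) and 0.32 ± 0.12 after ncRNA-a7 siRNA (limma adjusted p = 0.124). The DDR1 change after ncRNA-a7 siRNA passed the threshold under 1 of 18 alternatives.

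**Figure D2:**
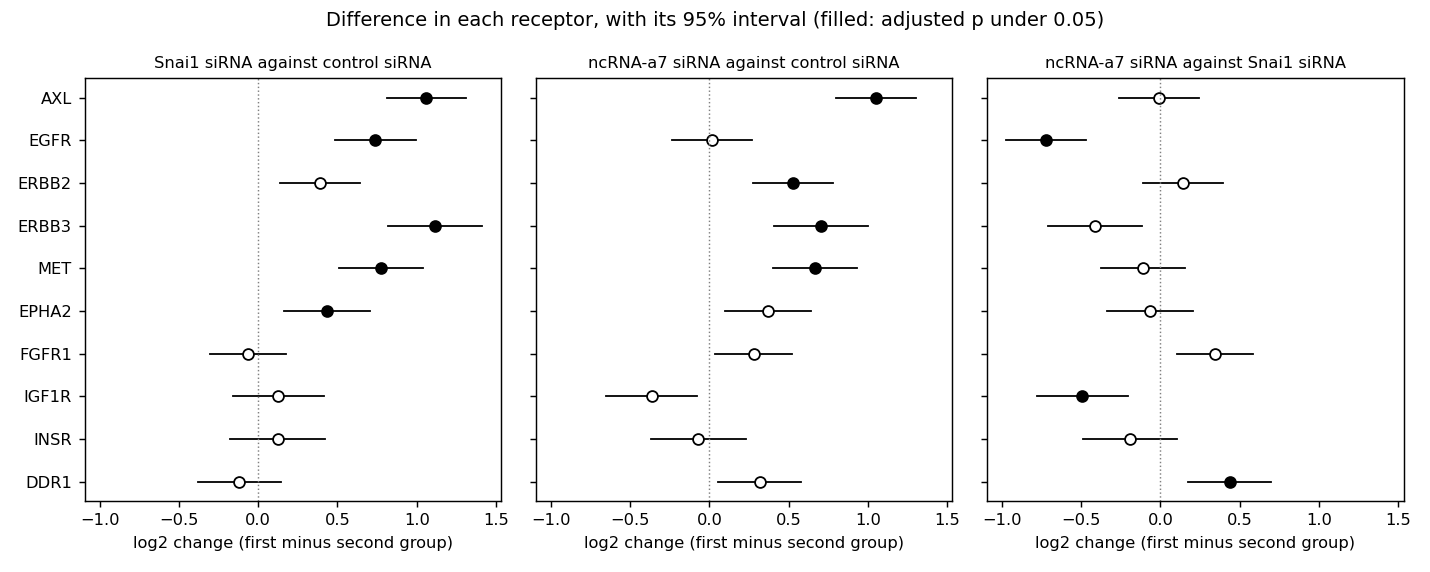
Log2 change of each of the 10 receptors in 3 comparisons, as points with 95% intervals, filled where the limma adjusted p is under 0.05. AXL, ERBB3 and MET lie to the right of 0 in both comparisons with control, and in ncRNA-a7 siRNA against Snai1 siRNA the EGFR interval from -0.98 to -0.47 lies to the left of 0.

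ncRNA-a7 siRNA was then set directly against Snai1 siRNA, a comparison that uses no control array for its means. Of the 10 receptors, 1 was called higher (DDR1) and 2 lower (EGFR and IGF1R), where limma called 8.11% of features, 4.74% higher and 3.38% lower. Groups did not overlap for 6 receptors, 3 higher and 3 lower, where 50.9% of features did not overlap, 25.3% higher and 25.6% lower. Among the receptors that were not called, ERBB2 changed by 0.14 (95% interval -0.11 to 0.39, limma adjusted p = 0.52), FGFR1 by 0.34 (0.10 to 0.58, adjusted p = 0.0824), EPHA2 by -0.06 (-0.34 to 0.21, adjusted p = 0.808) and INSR by -0.19 (-0.49 to 0.11, adjusted p = 0.444). Besides EGFR, IGF1R was 1.41-fold lower after ncRNA-a7 siRNA than after Snai1 siRNA (log2 change -0.49 ± 0.13, limma adjusted p = 0.0392) and DDR1 was 1.35-fold higher (0.44 ± 0.12, limma adjusted p = 0.045). The DDR1 call was lost without any 1 of the 6 arrays (adjusted p up to 0.184), and the IGF1R call was lost without any 1 array other than ncRNA-a7 siRNA replicate 2 (adjusted p up to 0.201).

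None of the receptor calls in the 3 comparisons is a statement about a minimum size. When limma's treat test asked for a change beyond 1.5-fold, 0 receptors passed in each comparison. At an unadjusted p under 0.05 that test gave 2 receptors for Snai1 siRNA against control siRNA, 1 for ncRNA-a7 siRNA against control siRNA and 0 for the direct comparison. Over all 19730 features the same test called 50, 70 and 23.

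All 21 probes were also tested over the whole array without the filter on low signals. After Snai1 siRNA 5 of the 21 were called against control, all higher, where 1.94% of 48701 probes were called. These were both AXL probes, 1 of 4 EGFR probes, 1 of 3 ERBB3 probes and the MET probe. After ncRNA-a7 siRNA 4 of the 21 were called against control, all higher, where 1.95% of probes were called: both AXL probes, the same ERBB3 probe and MET. In the direct comparison 1 of the 21 was called, the same EGFR probe, lower, where 1.19% of probes were called.

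The second AXL probe read 2806.5 and 2413 on the Snai1 siRNA arrays, 2594 and 3343 on the ncRNA-a7 siRNA arrays and 1489 and 1827 on the control siRNA arrays. It moved in the same direction as the first, with log2 changes of 0.79 ± 0.16 after Snai1 siRNA and 0.94 ± 0.16 after ncRNA-a7 siRNA against control (limma adjusted p = 0.0284 and 0.0101 over all probes).

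The EGFR and ERBB3 probes differed by the transcript the platform annotation assigns them to; where each probe lies in the gene was not checked, so a probe may also detect other transcripts. The called EGFR probe is annotated to the full-length receptor transcript, and the other 3 to shorter transcripts that lack the kinase domain. Of those 3, 1 passed the filter, at 339 and 285 on the Snai1 siRNA arrays, 279 and 323 on the ncRNA-a7 siRNA arrays and 269 and 316 on the control siRNA arrays. Its log2 change against control after Snai1 siRNA was 0.19 (limma adjusted p = 0.634), and those of the 2 dim probes were 0.10 and -0.18 (adjusted p = 0.871 and 0.668).

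The called ERBB3 probe is annotated to the full-length transcript, and the other 2 to a short transcript that encodes a secreted form. The brighter of these read 357 and 293 on the Snai1 siRNA arrays, 346 and 318 on the ncRNA-a7 siRNA arrays and 253 and 269 on the control siRNA arrays. Both knockdowns lay above control there too, but its log2 changes of 0.45 after Snai1 siRNA and 0.44 after ncRNA-a7 siRNA did not pass (limma adjusted p = 0.13 and 0.137). The second short-transcript probe gave 0.26 and 0.03 (adjusted p = 0.507 and 0.952). Among the other receptors with several probes, the second ERBB2 probe, at 152 and 144 on the Snai1 siRNA arrays, 159 and 162 on the ncRNA-a7 siRNA arrays and 146 and 167 on the control siRNA arrays, had a log2 change of -0.07 after Snai1 siRNA against control (adjusted p = 0.889). After ncRNA-a7 siRNA against control that probe changed by 0.08 (limma adjusted p = 0.868). The dim ERBB2 probe, annotated to the same transcript as the brightest, went the other way from it against control. Its log2 changes were -0.44 after Snai1 siRNA and -0.22 after ncRNA-a7 siRNA (limma adjusted p = 0.24 and 0.624). The other DDR1 probes and the dim FGFR1 and ERBB2 probes were not called in any of the 3 comparisons. Whether the probes of a gene differed from each other was not tested.

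**Figure D3:**
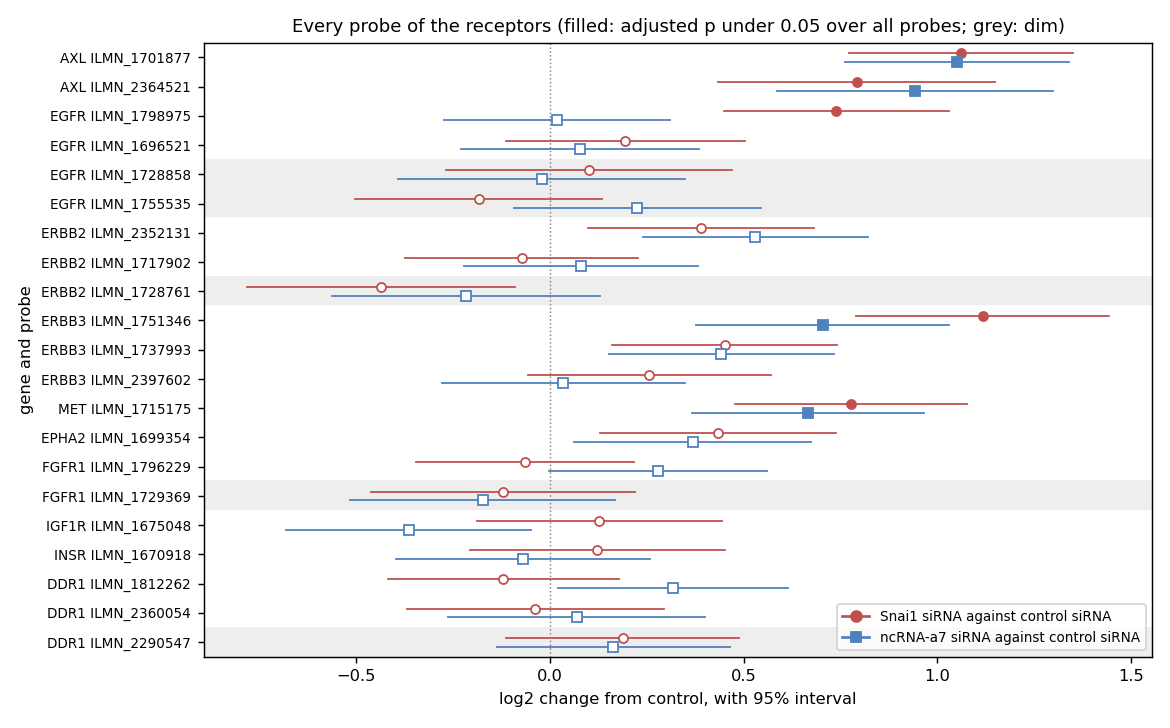
Log2 change from control of each of the 21 probes after Snai1 siRNA and after ncRNA-a7 siRNA, with 95% intervals, filled where the limma adjusted p over all 48701 probes is under 0.05, with grey bands behind the 5 dim probes. Both AXL probes lie to the right of 0, while 1 of 4 EGFR probes and 1 of 3 ERBB3 probes are filled.

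Taking the mean of those probes of a gene that passed the filter, in place of its brightest, gave smaller values for ERBB3, EGFR and ERBB2. The dim EGFR and ERBB2 probes did not enter these means. ERBB3 then changed by 0.61 after Snai1 siRNA and 0.39 after ncRNA-a7 siRNA on the log2 scale against control. EGFR changed by 0.47 after Snai1 siRNA against control and by -0.42 in the direct comparison, and the EGFR calls held. ERBB2 after ncRNA-a7 siRNA was 0.30, and its call was lost (limma adjusted p = 0.124).

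The receptors' similarity to AXL over the 6 arrays was described by Pearson's r of normalised log2 values, which share the arrays and the group differences above. MET was closest at r = 0.97, followed by ERBB2 at 0.93, EPHA2 at 0.91 and ERBB3 at 0.89. EGFR was at 0.51, FGFR1 at 0.33, DDR1 at 0.26, INSR at 0.12 and IGF1R at -0.22. Among the 13047 other named genes compared, the 5 most like AXL were IMPA2 (an inositol monophosphatase), CRELD2 (an endoplasmic reticulum stress protein), APPL2 (an endosomal adaptor), EVA1C and GPR137B, with r from 0.996 to 0.998. APPL2 read 2170.2 and 1730.02 on the Snai1 siRNA arrays, 1744 and 1969.96 on the ncRNA-a7 siRNA arrays and 788 and 891 on the control siRNA arrays. Its log2 changes against control were 1.37 after Snai1 siRNA and 1.26 after ncRNA-a7 siRNA (limma adjusted p = 9.24e-05 and 0.000112). As APPL2 was picked for its likeness to AXL over these same arrays, these p-values are no separate test. IMPA2 had the same shape at a log2 change of 0.22 in both comparisons with control, which did not pass (limma adjusted p = 0.275 and 0.245).

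Among the ligands of the receptors calls were about as frequent as over all features after Snai1 siRNA. Of 28 listed ligands, 19 were tested. After Snai1 siRNA 1 was called higher and 1 lower than after control siRNA, with a median log2 change of -0.01, where 9.16% of all features were called. EREG, an EGFR ligand, was 1.40-fold higher (limma adjusted p = 0.0223) and FGF2, an FGFR1 ligand, was 1.63-fold lower (log2 change -0.70 ± 0.12, limma adjusted p = 0.00438). FGF2 read 351 and 266 on the Snai1 siRNA arrays, 415 and 402 on the ncRNA-a7 siRNA arrays and 485 and 495 on the control siRNA arrays, so both knockdowns lay below control. Between ncRNA-a7 siRNA and control siRNA limma called 0 ligands, with 3 at an unadjusted p under 0.05, where 9.94% of features were called. At least 4317 of all 19730 features had an unadjusted p under 0.05 there. In the direct comparison, where 8.11% of features were called, EREG was 1.44-fold lower after ncRNA-a7 siRNA than after Snai1 siRNA (log2 change -0.53, limma adjusted p = 0.0179), and FGF2 was 1.36-fold higher (0.44, limma adjusted p = 0.0475).

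Several IGF-binding proteins, secreted proteins that hold insulin-like growth factors, were called higher against control. All 7 were tested. After Snai1 siRNA 4 were called higher and 1 lower (median log2 change 0.62), and after ncRNA-a7 siRNA 3 were called higher and 0 lower, each against control siRNA (median 0.51). Over all features 4.88% were called higher and 4.28% lower after Snai1 siRNA, and 5.78% and 4.16% after ncRNA-a7 siRNA. IGFBP1, the form made under stress and fasting in liver, read 1517 and 983 on the Snai1 siRNA arrays, 719.9 and 688 on the ncRNA-a7 siRNA arrays and 388 and 581 on the control siRNA arrays. It was 2.96-fold higher after Snai1 siRNA than after control siRNA (log2 change 1.57 ± 0.14, limma adjusted p = 9.24e-05), and 1.59-fold higher after ncRNA-a7 siRNA than after control siRNA (0.67 ± 0.14, limma adjusted p = 0.0119). The direct comparison put it 1.86-fold lower after ncRNA-a7 siRNA than after Snai1 siRNA (limma adjusted p = 0.0038).

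IGFBP2 was 1.88-fold higher after Snai1 siRNA and 1.80-fold higher after ncRNA-a7 siRNA than after control siRNA (limma adjusted p = 0.000857 and 0.00108), and IGFBP6 was 1.75-fold and 1.55-fold higher (limma adjusted p = 0.00153 and 0.00604). IGFBP3, the most abundant form in serum, was 1.57-fold lower after Snai1 siRNA than after control siRNA (log2 change -0.65, limma adjusted p = 0.00502). The remaining call, IGFBP4, was named after its values were seen and was 1.54-fold higher after Snai1 siRNA than after control siRNA (limma adjusted p = 0.0053). In the direct comparison 1 was called higher, IGFBP5 (1.76-fold, limma adjusted p = 0.0173), and 1 lower, IGFBP1. Over all features 4.74% were called higher and 3.38% lower there.

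Of 48 other receptor tyrosine kinases listed, 27 were tested. Against control 3 were called higher and 1 lower after Snai1 siRNA, with a median log2 change of 0.00. Over all features 4.88% were called higher and 4.28% lower in that comparison. NTRK3, a neurotrophin receptor, was 1.63-fold higher (limma adjusted p = 0.00518), and LMTK2 and ROR2 were higher by 0.47 and 0.43 on the log2 scale (limma adjusted p = 0.0368 and 0.0386). Against the same arrays 1 was called higher and 2 lower after ncRNA-a7 siRNA, with a median of -0.04, close to the 9.94% over all features. ROR1, a receptor for Wnt5a, read 352 and 279.7 on the Snai1 siRNA arrays, 600.2 and 696 on the ncRNA-a7 siRNA arrays and 306 and 344 on the control siRNA arrays. The ncRNA-a7 siRNA arrays stood above the other 4.

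ROR1 was 2.24-fold higher after ncRNA-a7 siRNA than after control siRNA (log2 change 1.16 ± 0.12, limma adjusted p = 0.000192) and 2.19-fold higher after ncRNA-a7 siRNA than after Snai1 siRNA (limma adjusted p = 0.000415). KIT, the stem cell factor receptor, was lower in both knockdowns, at 229.7 and 198 on the Snai1 siRNA arrays, 212 and 213 on the ncRNA-a7 siRNA arrays and 303 and 335 on the control siRNA arrays. It was 1.56-fold lower after Snai1 siRNA and 1.63-fold lower after ncRNA-a7 siRNA than after control siRNA (limma adjusted p = 0.00433 and 0.00228). TIE1, a receptor of endothelial cells, was 1.43-fold lower after ncRNA-a7 siRNA than after control siRNA (limma adjusted p = 0.0327). In the direct comparison LMTK2 was 1.65-fold lower and ROR2 1.40-fold lower after ncRNA-a7 siRNA than after Snai1 siRNA (limma adjusted p = 0.00586 and 0.026).

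Downstream of the receptors, 24 of 34 listed adaptors and signal transducers were tested. Between Snai1 siRNA and control siRNA limma called 0, with 7 at an unadjusted p under 0.05 and a median log2 change of 0.16, where 9.16% of features were called. At least 4546 of all 19730 features had an unadjusted p under 0.05 there. Against control 1 was lower after ncRNA-a7 siRNA, IRS2, the insulin receptor substrate, by 1.36-fold (limma adjusted p = 0.0357), and the median was 0.03, where 4.16% of features were called lower. After ncRNA-a7 siRNA 3 were lower than after Snai1 siRNA: GRB2, NCK1 and IRS2 by 0.46, 0.48 and 0.43 on the log2 scale. Their limma adjusted p-values were 0.0284, 0.0337 and 0.046, and 3.38% of all features were called lower there.

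Among the negative regulators, 23 of 29 listed were tested. For Snai1 siRNA against control siRNA 5 were called higher and 0 lower (median log2 change 0.15), and for ncRNA-a7 siRNA against control siRNA 3 higher and 2 lower (median -0.01), where 9.16% and 9.94% of all features were called in these comparisons. SPRED1, which restrains Ras-ERK signalling, read 3276 and 1974 on the Snai1 siRNA arrays, 3431 and 3027 on the ncRNA-a7 siRNA arrays and 1388 and 1543 on the control siRNA arrays. It was 1.92-fold higher after Snai1 siRNA and 2.38-fold higher after ncRNA-a7 siRNA than after control siRNA (limma adjusted p = 0.00107 and 0.000147). SPRY4, a Sprouty protein, was 1.47-fold and 1.38-fold higher (limma adjusted p = 0.0103 and 0.0258).

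LRIG1, which promotes the breakdown of ERBB receptors, was 1.63-fold higher after ncRNA-a7 siRNA than after control siRNA (limma adjusted p = 0.00428) and, named after its values were seen, 1.39-fold higher after Snai1 siRNA (limma adjusted p = 0.0331). SOCS2 and SOCS3, suppressors of cytokine signalling, were 1.54-fold and 1.51-fold higher after Snai1 siRNA than after control siRNA (limma adjusted p = 0.00567 and 0.0186). CBL, the ubiquitin ligase of activated receptors, was 1.36-fold lower after ncRNA-a7 siRNA than after control siRNA (limma adjusted p = 0.0338), as was PTPN1, named after its values were seen, by 0.52 on the log2 scale (limma adjusted p = 0.0409). In the direct comparison SOCS3 was 1.71-fold lower and SOCS5 1.48-fold lower after ncRNA-a7 siRNA than after Snai1 siRNA, and DOK1 was 1.46-fold higher (limma adjusted p = 0.00622, 0.0181 and 0.0234).

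Of 5 receptor sheddases, proteases that cut ligands or receptors from the membrane, 4 were tested. In the limma fit 0 were called after Snai1 siRNA against control, with 1 at an unadjusted p under 0.05, and 0 in the direct comparison, with 0 at that level. Over all features 9.16% and 8.11% were called in these comparisons. ADAM15 was 1.31-fold higher after ncRNA-a7 siRNA than after control siRNA (limma adjusted p = 0.0486), where 9.94% of features were called.

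Transcripts known to follow ERK activity moved in both directions. Of 13 listed, 12 were tested. For Snai1 siRNA against control siRNA 5 were called higher and 1 lower (median log2 change 0.09), and for ncRNA-a7 siRNA against control siRNA 3 higher and 1 lower (median 0.18), where 9.16% and 9.94% of all features were called. DUSP5, a phosphatase that acts on ERK, read 1525 and 1245 on the Snai1 siRNA arrays, 1382 and 1285 on the ncRNA-a7 siRNA arrays and 829 and 952 on the control siRNA arrays. It was 1.70-fold higher after Snai1 siRNA and 1.60-fold higher after ncRNA-a7 siRNA than after control siRNA (limma adjusted p = 0.0022 and 0.00414). FOS was 1.53-fold and 1.37-fold higher (limma adjusted p = 0.0135 and 0.0485), and ETV4 was 1.40-fold and 1.37-fold higher (limma adjusted p = 0.0244 and 0.0318).

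ETV5, an ETS factor, was 1.39-fold higher after Snai1 siRNA than after control siRNA (limma adjusted p = 0.0295). MYC, a growth regulator, was 1.56-fold lower after ncRNA-a7 siRNA than after control siRNA (log2 change -0.64 ± 0.11, limma adjusted p = 0.0038). The calls left after Snai1 siRNA, named after their values were seen, were FOSL1, higher by 0.50 on the log2 scale, and MYC, which fell by 0.42 (limma adjusted p = 0.0366 and 0.0331). In the direct comparison limma called 0 of the 12, with 4 at an unadjusted p under 0.05, where 8.11% of features were called.

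**Figure D4:**
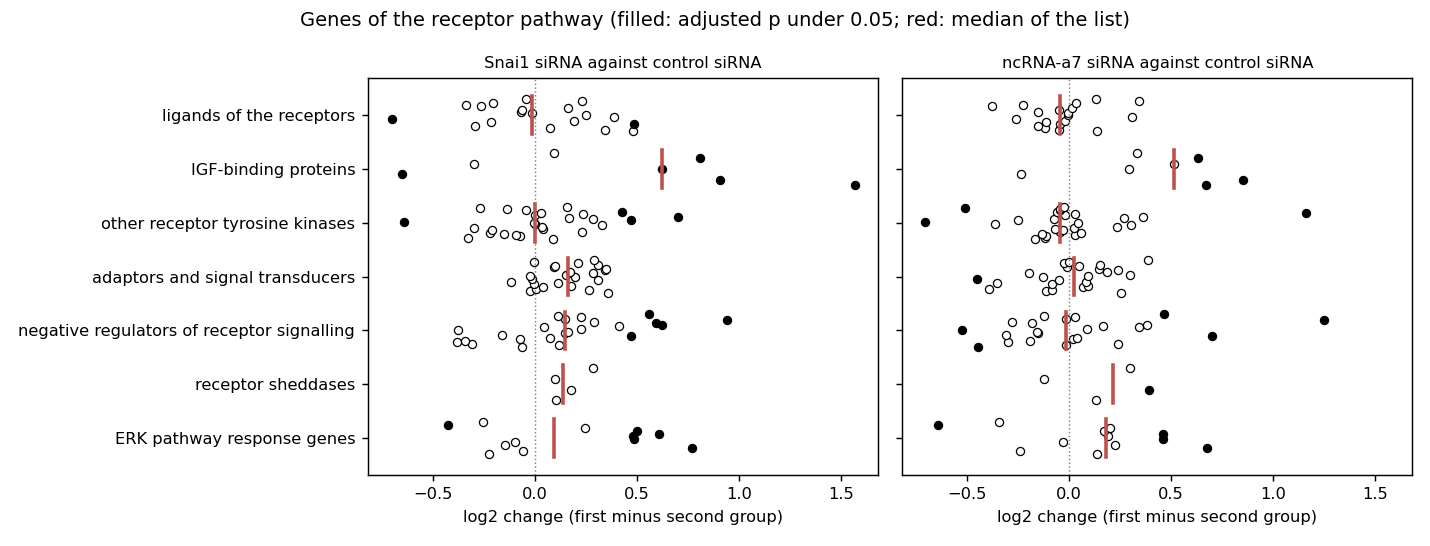
Log2 change of each tested gene in 7 lists of the receptor pathway, for Snai1 siRNA and for ncRNA-a7 siRNA against control siRNA, with a filled point where the limma adjusted p is under 0.05 and a red mark at the median of the list. The IGF-binding proteins have medians of 0.62 and 0.51 against control, while ligands and adaptors have medians between -0.05 and 0.16.

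Few of the pathway calls held when single arrays were left out. Of the 22 pathway genes called after Snai1 siRNA against control, 5 were called in every fit that left out 1 array: IGFBP1, IGFBP2, IGFBP6, SPRED1 and DUSP5. Of the 17 called after ncRNA-a7 siRNA against control, 7 were: KIT, ROR1, IGFBP2, LRIG1, SPRED1, DUSP5 and MYC. Of the 13 called in the direct comparison, 2 were, ROR1 and IGFBP1. Without control siRNA replicate 1, 6 of the 22 Snai1 calls and 8 of the 17 ncRNA-a7 calls against control were left, and without Snai1 siRNA replicate 1, 3 of the 13 direct calls. The fewest left by any other array were 8 of 22 without Snai1 siRNA replicate 2, 9 of 17 without either ncRNA-a7 siRNA array or control siRNA replicate 2, and 5 of 13 without Snai1 siRNA replicate 2 or ncRNA-a7 siRNA replicate 1.

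Some markers of epithelium and of other cell types differed between the groups, not always in the same direction within a list. The summed normalised signal of the 8 tested epithelial and A549 markers was 95475 to 99643 after Snai1 siRNA, 106951 to 108119 after ncRNA-a7 siRNA and 71267 to 71473 after control siRNA. Against control 2 were called higher and 1 lower after Snai1 siRNA, where 9.16% of all features were called. After ncRNA-a7 siRNA 4 were called higher, KRT8 among them, and 2 lower, EPCAM and KRT18, where 9.94% of features were called. AKR1B10, a reductase that is abundant in A549, contributed most to that sum, with mean signals of 52748 after Snai1 siRNA, 60079 after ncRNA-a7 siRNA and 37936 after control siRNA, so the sum does not describe the list as a whole. AKR1B10 was 1.46-fold higher after Snai1 siRNA and 1.64-fold higher after ncRNA-a7 siRNA than after control siRNA (limma adjusted p = 0.0102 and 0.00206), and NQO1, a quinone reductase, was 1.39-fold higher after ncRNA-a7 siRNA than after control siRNA (limma adjusted p = 0.0215). CDH1 was 1.72-fold and 1.65-fold higher (limma adjusted p = 0.0014 and 0.00194), and EPCAM, another epithelial surface protein, was 2.18-fold and 3.12-fold lower (limma adjusted p = 0.0012 and 0.000103). With single arrays left out, CDH1 and EPCAM were called in 6 of 6 fits in both comparisons. AKR1B10 was called in 3 of 6 after Snai1 siRNA, lost without Snai1 siRNA replicate 2 or either control array, and in 6 of 6 after ncRNA-a7 siRNA. After ncRNA-a7 siRNA KRT8 and NQO1 were called in 2 of 6 and KRT18 in 0 of 6.

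The 2 tested leukocyte markers summed to 487 to 557 after Snai1 siRNA, 529 to 541 after ncRNA-a7 siRNA and 272 to 291 after control siRNA. CD14, a monocyte surface protein, was 2.22-fold and 2.01-fold higher after Snai1 siRNA and ncRNA-a7 siRNA than after control siRNA (limma adjusted p = 0.000266 and 0.000439), and ITGAM, an integrin of myeloid cells, was 1.74-fold higher after ncRNA-a7 siRNA (limma adjusted p = 0.00126), calls kept in 6 of 6 fits with 1 array left out. The 3 tested endothelial markers summed to 546 to 602 after Snai1 siRNA, 413 to 498 after ncRNA-a7 siRNA and 388 to 404 after control siRNA, with ESAM called higher in both (in 6 of 6 such fits after Snai1 siRNA, and in 4 of 6 after ncRNA-a7 siRNA, lost without ncRNA-a7 siRNA replicate 1 or control siRNA replicate 1). The 2 tested fibroblast markers summed to 509 to 536 after Snai1 siRNA, 412 to 424 after ncRNA-a7 siRNA and 374 to 416 after control siRNA, with LUM called higher after Snai1 siRNA (in 3 of 6 such fits, lost without either Snai1 siRNA array or control siRNA replicate 1). The endothelial and fibroblast sums were largely carried by ESAM and by LUM. After Snai1 siRNA against control ESAM changed by 1.48 on the log2 scale, PECAM1 by -0.21 and KDR by -0.002. In that comparison LUM changed by 0.53 and DCN by -0.01. The fibroblast sums after ncRNA-a7 siRNA overlapped those after control siRNA. In the direct comparison 8.11% of features were called. There ESAM was 1.77-fold lower and LUM 1.36-fold lower after ncRNA-a7 siRNA than after Snai1 siRNA (limma adjusted p = 0.0028 and 0.0385). The ESAM call was kept on leaving out any 1 array, and the LUM call was lost. Of the epithelial and leukocyte markers 0 were called there, with 2 and 1 at an unadjusted limma p under 0.05. The part of these markers in the receptor differences was not tested.

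**Figure D5:**
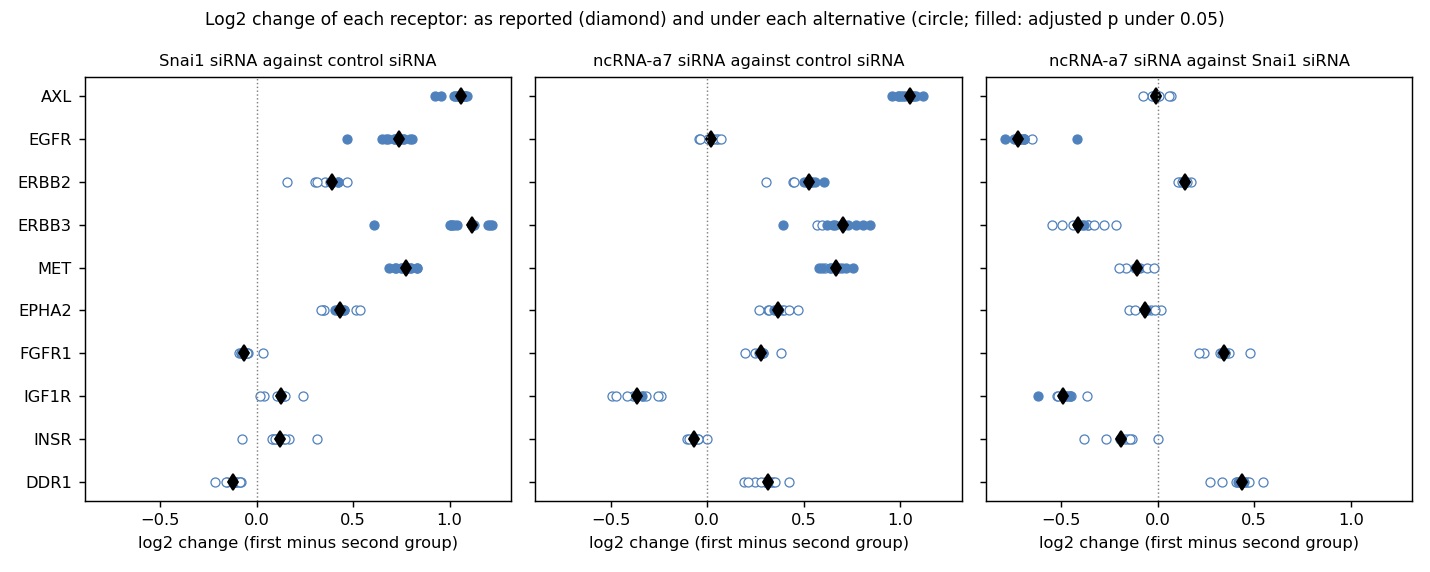
Log2 change of each receptor in 3 comparisons as reported (diamond) and under each of the 18 alternatives (circles; FGFR1 and INSR have 17, since the stricter filter drops them), filled where the adjusted p is under 0.05. AXL, ERBB3, MET and EGFR keep filled points for Snai1 siRNA against control siRNA except in the test for a change beyond 1.5-fold, while the EPHA2 point is filled in only 5 of 18.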

How the data were processed

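Biotin-labelled total RNA of A549 cells, 2 samples for each of 3 siRNA groups, was read on 6 single-colour Illumina bead arrays. Groups and replicate numbers come from the sample labels. The deposited scanner table holds 1 signal intensity per probe and array, linear and not normalised per the file headers; in the authors' second deposited table the same intensity columns were multiplied by 1 constant each, from 0.783 to 1, so that all array means were equal. Software names for the tables were not given in the sources used here. Detection p-values are in neither table, so background was not measured, and 0 columns of other samples were present.

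Probes were named through the platform annotation, where 28044 of 48701 had 1 symbol, 13 several and 20644 none. Gene IDs of 28005 matched RefSeq (GRCh38.p14), which also gave promoter sequences. With limma 3.58.1 in R 4.3.3, deposited intensities were corrected by normexp (offset 50), log2 transformed and then quantile normalised. Since the offset stays in the value, folds of dim genes are understated. A filter kept the 24350 probes whose mean log2 exceeded the median over probes; the brightest probe stood for each gene, and 19730 features were fitted over all 6 arrays with lmFit and eBayes (3 residual and 8.9 prior degrees of freedom). A call is a Benjamini-Hochberg adjusted p under 0.05 over all features. The fit was tested on simulated data. All 21 receptor probes were also taken from a fit over all 48701 probes.

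The naming rule took all 10 receptors, of each pathway and marker list and comparison at most 4 called genes, those with the smallest p, and of other genes the 5 with the highest correlation with AXL; genes beyond the rule are said in the text to be named after their values were seen, or, like KRT8 and KRT18, stand among the marker checks. The receptors and lists were chosen with earlier results of these data known. Of the listed genes, those with no probe or below the filter were not tested. Alternatives were the background method, offset, scaling, filter, probe summary, variance prior, groups fitted, replicate block, leaving out each array and a test against 1.5-fold. With 2 arrays a group, precision is limited by their number. Figures were drawn with matplotlib 3.10.9 in Python 3.11.15.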

Additional observations from a re-analysis of the deposited data

How the results depend on the processing

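AXL after either knockdown, and EGFR, ERBB3 and MET after Snai1 siRNA, were called against control under every alternative except a minimum change of 1.5-fold, under which 0 receptors and 0 receptor probes were called by limma in each comparison (unadjusted p under 0.05 for 2 receptors after Snai1 siRNA and 1 after ncRNA-a7 siRNA against control, and 0 between the knockdowns, and for 2, 2 and 0 probes). AXL then had an adjusted p of 0.19 after Snai1 siRNA and 0.165 after ncRNA-a7 siRNA. The cause of the changes below was not tested.

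For Snai1 siRNA against control siRNA 1807 features were called, and 987 with an offset of 16, 1064 with median scaling, 820 without the filter, 2718 with a trended prior and 50 beyond 1.5-fold; leaving out 1 array gave 467 to 1942. For ncRNA-a7 siRNA against control siRNA 1962 were called, and 1032, 920 and 822 with the offset, median scaling and no filter, 70 beyond 1.5-fold, and 563 to 1768 with 1 array left out. For ncRNA-a7 siRNA against Snai1 siRNA 1601 were called, and 2487 without background correction, 569 with the offset, 698 with median scaling, 498 without the filter, 2498 with the stricter filter, 2574 with a trended prior, 23 beyond 1.5-fold, and 341 to 1153 with 1 array left out. Median scaling moved the share of calls that were higher to 33.7% from 53.3% for Snai1 siRNA against control siRNA and to 70.6% from 58.4% in the direct comparison.

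Receptor genes called were 7 of the 8 that the stricter filter kept for ncRNA-a7 siRNA against control siRNA, and 1 in the direct comparison with the offset of 16, median scaling, the authors' values, no filter or only the 2 groups fitted. Leaving out 1 array gave 4 each time for Snai1 siRNA against control siRNA, 1 to 4 for ncRNA-a7 siRNA against control siRNA and 0 to 2 in the direct comparison. Receptor probes called were 8, 6 and 3 in the 3 comparisons both without background correction and with a trended prior, and limma called 0 in each comparison with the offset of 16, with 9, 7 and 5 at an unadjusted p under 0.05. Leaving out 1 array gave 2 to 5, 1 to 4 and 0 to 1.

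Signs turned where values lay near 0. The direct change of AXL was 0.0022 with median scaling, 0.07 over the mean of its probes, and -0.078 to 0.0584 with 1 array left out, above 0 without Snai1 siRNA replicate 2 or without the first ncRNA-a7 siRNA array. EGFR after ncRNA-a7 siRNA against control was -0.0441 with median scaling and -0.0358 to 0.0729 with 1 array left out. Leaving out arrays gave EPHA2 -0.1469 to 0.0165 and INSR -0.3819 to 0.0043 in the direct comparison, and INSR -0.0769 to 0.3127 after Snai1 siRNA against control. With the authors' values FGFR1 after Snai1 siRNA was 0.0337 and INSR after ncRNA-a7 siRNA 0.0011 against control.

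Deviations of same-numbered arrays correlated at 0.012, -0.066 and -0.006. These values show no shared deviation, but they cannot tell whether the samples were paired by design. With the replicate block 1664, 1730 and 1433 features were called in the 3 comparisons, and 5, 4 and 2 receptors, the DDR1 call in the direct comparison being lost (adjusted p = 0.0586). INSR and FGFR1 lay near the filter, and 5 receptor probes below it, so changes there could not be measured well.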
